A study of Mus musculus with 2 samples.

Results

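Gliosis is the reaction of retinal glia to stress, injury or metabolic disease, and the 10 genes described here are among those most often used to follow it in Muller glia, the radial glial cells that span the retina. They were taken by symbol (Gfap, Vim, Nes, Edn2, Fgf2, Cebpb, Cebpd, Cp, Socs3 and Serpina3n), all 10 were found among the 32285 genes of the count tables, and none was used to assign cells to a class. Retinas of diabetic and control mice were profiled by single-cell RNA sequencing. The diabetic mice were C57BLKS-Leprdb/db, homozygous for the db mutation of the leptin receptor gene and named BKSDB, and the controls were C57BLKS-Leprwt/wt, named BKSWT. Both were 13 weeks old and untreated. Each genotype was 1 library made from retinas of 2 mice, with enzymatic digestion and the 10x Genomics 3' v3.1 chemistry, and no label separates the mice within a library. The db/db mouse carries the mutation in every tissue and is obese as well as diabetic, and its retina was sampled at a single age.

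In a healthy retina Muller glia contain vimentin and little glial fibrillary acidic protein (GFAP), and the appearance of GFAP along the cell is the classical sign of gliosis. Stressed photoreceptors are known to make endothelin 2, and some Muller glia then make leukaemia inhibitory factor (LIF), which activates STAT3 and leads to more of the survival factor FGF2. SOCS3 is a direct target of STAT3 that switches this signalling off again, while C/EBPβ and C/EBPδ are transcription factors that respond to cytokines and to acute stress.

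The matrices held 33742189 UMIs (unique molecular identifiers, which mark single captured RNA molecules) over 11083 barcodes in the db/db library and 35642274 UMIs over 10308 barcodes in the wild-type library. Cells with at least 200 genes and at most 20% mitochondrial UMIs were kept, 10963 in the db/db library and 10230 in the wild-type library, and 26 barcode sequences occurred in both. For each library 6000 cells loaded and 3000 targeted are recorded, fewer than the barcodes kept as cells. Which of the kept barcodes were single cells was not tested. A cell was gated as a Muller cell, microglial cell, cone, bipolar or amacrine cell when at least 4 of 10 markers of the class had a UMI and the markers made up at least 0.5% of its UMIs, and rods were gated by rod markers at 2% or more. The gates held 157 Muller glia, 53 microglia, 9506 rods and 601 cones in the db/db library, and 275, 54, 8290 and 703 in the wild-type library. Levels are the UMIs of a gene per 1000000 UMIs of all cells of a class (CPM), intervals are exact at 95% and cover counting error only, and with 1 library per genotype no difference between genotypes has a replicate check or a test. A gene counted as measured in a class when both libraries together held at least 50 of its UMIs there.

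The Muller gate was made up of a deep and a shallow group. Cells with 8 to 10 of the markers numbered 85 in the db/db library and 155 in the wild-type library and had medians of 6345 and 6257 UMIs. Cells with 4 to 7 markers numbered 72 and 120, had medians of 1097 and 982 UMIs, and held rod markers at a median of 2.06% and 2.34% of their UMIs, against 0.472% and 0.659% in the better marked cells. The summed level of 6 astrocyte markers in the Muller gate was 63.2 CPM in the db/db library and 65.5 CPM in the wild-type library, with 4 of the 6 detected in each. Gja1 was at 0 in both, Fgfr3 in the db/db library and Pax2 in the wild-type library, and no cell passed the astrocyte gate.

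The stretches upstream of the RefSeq start sites (build GRCm38.p6) are shown for 4 members with unlike patterns in these libraries. These members are Socs3, which is high in several classes, and Cebpb, whose ratio had the sign of Socs3 in Muller glia and microglia but which was almost absent from cones. The others are Gfap, which is nearly silent, and Edn2, which had similar low levels in rods, cones and Muller glia. The table of promoters held entries for 9 of the 10 members. Each run is printed from 5′ to 3′ on the strand of its gene, ends at the start site or before the first exon of any GENCODE M21 transcript that overlaps it, and carries in capitals the matches to TTCNNNGAA (bound by STAT factors), TTGCNNAA (bound by C/EBP factors), TGACG (bound by CREB and ATF factors) and TATAAA, searched on both strands.
Socs3, chr11:117969452-117969616, minus strand: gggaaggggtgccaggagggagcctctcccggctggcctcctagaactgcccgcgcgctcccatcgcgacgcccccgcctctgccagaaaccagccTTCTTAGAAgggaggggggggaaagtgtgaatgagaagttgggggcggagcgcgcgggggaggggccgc
Cebpb, chr2:167688665-167688914, plus strand: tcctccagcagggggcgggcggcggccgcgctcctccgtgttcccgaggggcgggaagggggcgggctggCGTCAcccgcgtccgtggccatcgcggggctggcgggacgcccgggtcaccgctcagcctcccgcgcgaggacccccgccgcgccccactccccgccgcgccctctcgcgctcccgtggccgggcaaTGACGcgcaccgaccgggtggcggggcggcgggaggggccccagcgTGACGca
Gfap, chr11:102897201-102897450, minus strand: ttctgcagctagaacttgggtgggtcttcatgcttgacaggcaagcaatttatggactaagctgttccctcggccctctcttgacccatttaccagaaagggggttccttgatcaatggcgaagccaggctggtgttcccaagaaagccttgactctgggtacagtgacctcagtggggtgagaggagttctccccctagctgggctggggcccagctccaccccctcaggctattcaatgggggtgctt
Edn2, chr4:120160956-120161205, plus strand: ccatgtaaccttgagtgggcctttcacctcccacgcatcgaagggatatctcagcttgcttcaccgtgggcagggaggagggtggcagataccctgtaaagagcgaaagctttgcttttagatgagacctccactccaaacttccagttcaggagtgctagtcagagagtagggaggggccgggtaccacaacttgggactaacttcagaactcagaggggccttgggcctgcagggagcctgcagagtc
The 165 bases of Socs3 held 1 STAT match, TTCTTAGAA, which starts 154 bases upstream of the RefSeq start and is found in 4.86% of all promoters over a stretch of the same length. The 250 bases of Cebpb held 3 matches to TGACG, against a share of 17.8% of all promoters with at least 1, and were 81.6% G and C. The Gfap and Edn2 stretches, at 55.6% G and C each, held no match to any of these motifs. In all 7 stretches were searched, and those of Cp, Nes and Serpina3n, which are not shown, held no match either. These matches describe the letters of the reference only, and binding was not measured.

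**Figure D1:**
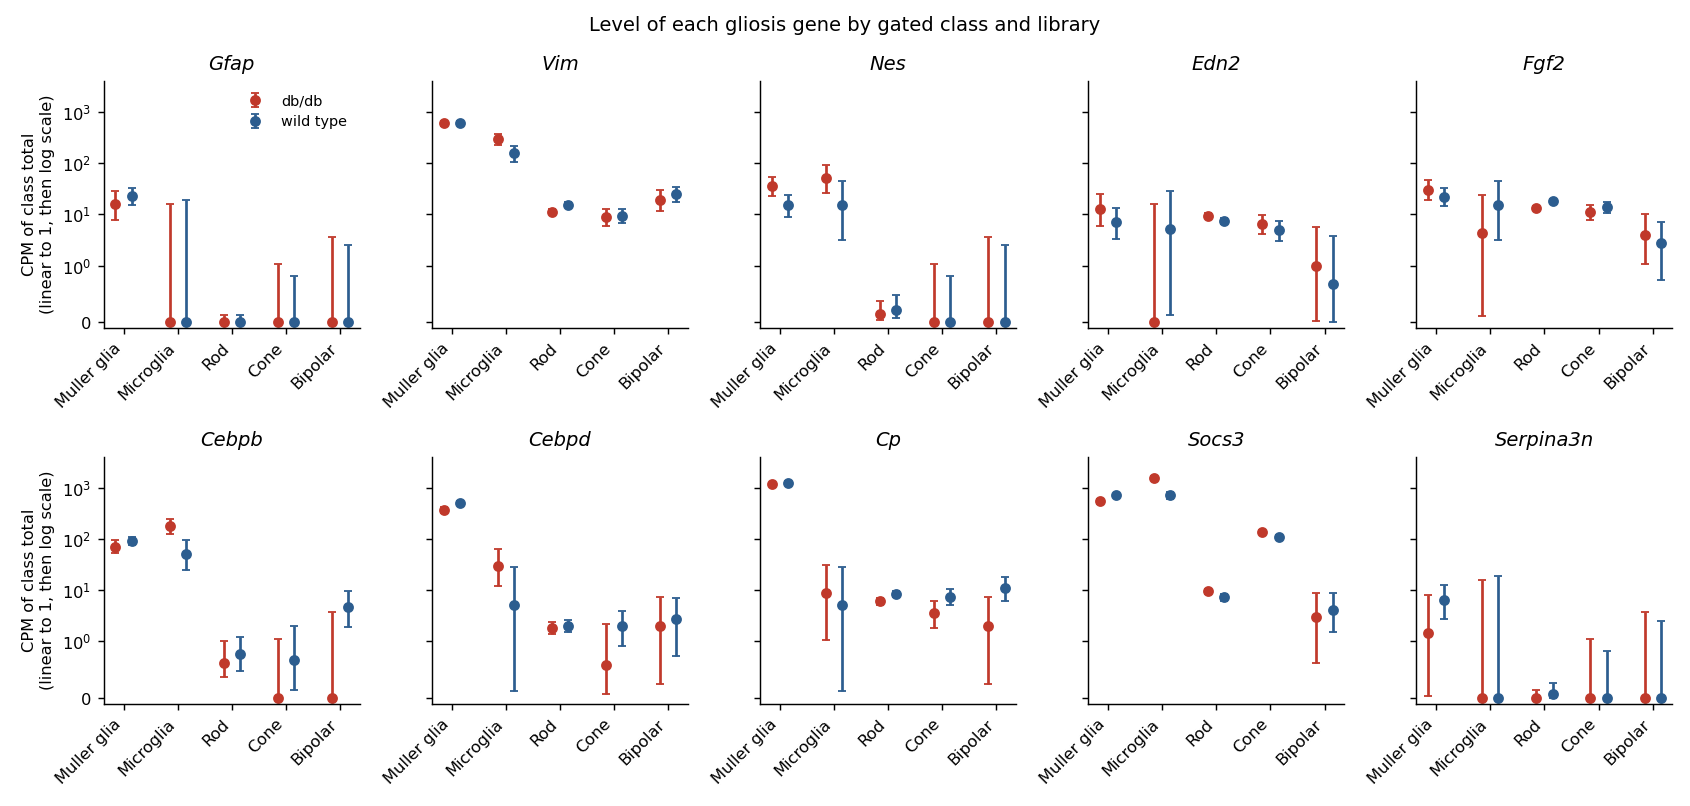
Level of each of the 10 genes (CPM of the class total, on a scale that is linear up to 1 and logarithmic above) in 5 gated classes, with db/db points left of wild-type points and bars for the exact 95% Poisson interval. Cp, Vim and Cebpd stand highest in Muller glia, Socs3 is high in Muller glia, microglia and cones, and Gfap is at 0 in the other 4 classes.

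Among the intermediate filament genes, Gfap was almost absent from the Muller glia of both genotypes, and Vim was equally abundant in both. Gfap (ENSMUSG00000020932, chr11:102887336-102900912 in GRCm38) had 11 UMIs in db/db Muller glia and 29 in wild-type Muller glia, or 15.8 CPM (7.89 to 28.3) and 22.9 CPM (15.3 to 32.9). These molecules came from 3 cells of each library, 1.91% of the db/db and 1.09% of the wild-type Muller glia. A single cell held 9 of the 11 Gfap UMIs in the db/db library, and a single cell held 22 of the 29 in the wild-type library. The level of Gfap in the class was thus the level of 1 cell in each library. The db/db cell had 5 of the 10 Muller markers, 29 UMIs of Glul (glutamine synthetase), 8 of Rlbp1 and 11 of Vim, and it also had 3 UMIs of Pax2, a marker of retinal astrocytes. The wild-type cell had 9 markers, but only 3 UMIs of Glul beside 9 of Rlbp1, and it held 49 UMIs of Vim and 2 of Serpina3n. Whether these 2 cells were Muller glia or astrocytes was not tested. Another 8 Gfap UMIs of the wild-type library, 21.6% of its total, lay in 2 cells outside all gates, 7 of them in 1 cell. No rod, cone, bipolar or microglial cell of either library had a Gfap UMI. For rods, 0 of 9506 db/db cells and 0 of 8290 wild-type cells allow a share of cells with a UMI of up to 0.0388% and 0.0445%. In the 85 db/db Muller glia with 8 to 10 markers only 1 Gfap UMI was found, against 29 in the 155 wild-type ones.

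Vim, which encodes vimentin, the constitutive filament protein of Muller glia (ENSMUSG00000026728, chr2:13573927-13582826), had 413 UMIs in db/db Muller glia and 781 in wild-type Muller glia. Its level was 593 CPM (537 to 653) in the db/db library and 617 CPM (574 to 661) in the wild-type library, a log2 ratio of -0.06 (-0.23 to 0.12). Of the Muller glia, 72.0% in the db/db library and 73.1% in the wild-type library had a Vim UMI, against 2.87% and 3.99% of rods. Vim was therefore both widespread and level between the libraries. It stood 52.8-fold above rods in the db/db library and 39.8-fold above rods in the wild-type library. In rods it had 306 UMIs in the db/db library and 415 in the wild-type library, 11.2 and 15.5 CPM, which were 1.89% and 2.52% of the Muller level. The 10 gate markers of Muller glia stood in rods at 0.325% (Gpr37) to 1.82% (Rlbp1) of their Muller level in the db/db library and at 0.509% (Gpr37) to 2.52% (Rlbp1) in the wild-type library. Vim in rods lay at the upper end of the markers in both libraries, and its source there was not tested. The gates themselves hold the markers down in rods and up in Muller glia, and they did not use Vim.

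Nes encodes nestin, the filament protein of neural progenitors that is also found in reactive glia (ENSMUSG00000004891, chr3:87971078-87980451). It was sparse, with 25 UMIs in 12 db/db Muller glia and 19 UMIs in 11 wild-type Muller glia. Its level was 35.9 CPM (23.2 to 53.0) in db/db Muller glia and 15 CPM (9.03 to 23.4) in wild-type Muller glia, a log2 ratio of 1.26 (0.34 to 2.20), and it did not reach the 50 UMIs set for a measured gene. Of the 3 filament genes among the members, Nes alone stood above 0. A single db/db cell with 6 Muller markers held 7 of the 25 UMIs, and among the Muller glia with 8 to 10 markers the log2 ratio was 0.78 (-0.26 to 1.80). Of the other filament and scaffold genes that were listed, Synm (synemin, a partner of vimentin and GFAP) and Lmna (lamin A/C of the nuclear envelope) were measured. Lmna was lower in db/db Muller glia by a log2 ratio of -1.0 (-1.53 to -0.50) and Synm by -0.53. Lmna thus reached 2-fold, which 0.931% of all 6663 genes measured in Muller glia did downwards.

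Cp encodes ceruloplasmin, a copper enzyme that oxidises iron for its export from the cell (ENSMUSG00000003617, chr3:19957054-20009145). It was the most widespread of the 10 genes together with Vim, and close to equal in both libraries. Db/db Muller glia held 805 UMIs and wild-type Muller glia 1588, or 1157 CPM (1078 to 1239) and 1254 CPM (1193 to 1317), with a log2 ratio of -0.12 (-0.24 to 0.01). A Cp UMI was found in 71.3% of db/db and 74.5% of wild-type Muller glia, and among cells with 8 to 10 markers in 98.8% of db/db cells and in all 155 wild-type cells. Muller glia held 76.0% of all Cp UMIs of the db/db library and 81.7% of those of the wild-type library. Their level exceeded that of rods by 193-fold in the db/db library and by 150-fold in the wild-type library. Microglia had 2 Cp UMIs in the db/db library and 1 in the wild-type library. The ratio of Vim to Cp UMIs was 0.513 in db/db and 0.492 in wild-type Muller glia, and 1.88 in db/db and 1.86 in wild-type rods. Where the Vim and Cp of rods came from was not tested. Of the iron genes listed beside Cp, 5 of 8 were measured and none differed by 2-fold. Trf (transferrin) was higher in db/db Muller glia by a log2 ratio of 0.40 (0.13 to 0.67), Heph (hephaestin, the homologue of ceruloplasmin) stood at 0.28, and the ferritin chains Fth1 and Ftl1 stood at 0.06 and -0.12.

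The cytokine-responsive genes Socs3, Cebpd and Cebpb formed a second kind of pattern. They were strong in a fraction of Muller glia and lower in the db/db library. Socs3 (ENSMUSG00000053113, chr11:117966079-117970047) had 373 UMIs in db/db Muller glia and 898 in wild-type Muller glia, a level of 536 CPM (483 to 593) against 709 CPM (663 to 757). The log2 ratio was -0.40 (-0.58 to -0.23), and the 95% counting intervals of the levels did not overlap. Cebpd (ENSMUSG00000071637, chr16:15887286-15891031) had 256 UMIs in db/db and 642 in wild-type Muller glia, 368 CPM (324 to 416) and 507 CPM (468 to 548), with a log2 ratio of -0.46 (-0.68 to -0.25). Cebpb (ENSMUSG00000056501, chr2:167688915-167690418) had 49 UMIs in db/db and 114 in wild-type Muller glia, 70.4 and 90 CPM, and its log2 ratio of -0.35 (-0.87 to 0.14) lay within counting error of 0. All 3 genes thus stood on the same side, and for Cebpb the counts were too few to separate the libraries. Markers of bipolar cells in the Muller gate moved the same way. Their summed level was 244 CPM in db/db Muller glia, with 8 of 10 detected and Grm6 and Vsx1 at 0, and 605 CPM in wild-type Muller glia, with all 10 detected. Pcp2 (-2.32), Gng13 (-2.24) and Trpm1 (-2.17) had log2 ratios further from 0 than any of the 3 genes, and the amacrine markers summed to 953 CPM in db/db and 1084 CPM in wild-type Muller glia. The part of other cell types in the difference was not tested.

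Few cells carried most of these transcripts. Socs3 was found in 45 of 157 db/db and 105 of 275 wild-type Muller glia, 28.7% (21.7 to 36.4) and 38.2% (32.4 to 44.2), and 8 db/db cells and 21 wild-type cells held 50% of its UMIs. For Cp, 24 db/db cells and 48 wild-type cells were needed to reach 50%. Among the Muller glia with 8 to 10 markers, 49.4% in the db/db library and 63.2% in the wild-type library had Socs3, and 61.2% and 70.3% had Cebpd. After each cell was thinned to 1000 UMIs the share of Muller glia with Socs3 was 22.0% in the db/db library and 32.7% in the wild-type library, and that with Cebpd was 17.9% and 31.8%, against 0.718% and 0.786% of rods with Socs3. Depth per cell was close to equal between the libraries, with medians of 3830 and 3901 UMIs in the whole gate. Single cells still weighed on Socs3, since 1 db/db cell held 52 of its 373 UMIs, and without the top cell of each library the log2 ratio was -0.56. In the Muller cluster of an unsupervised grouping, which kept 87 of the db/db and 172 of the wild-type gated cells, it was -0.18.

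**Figure D2:**
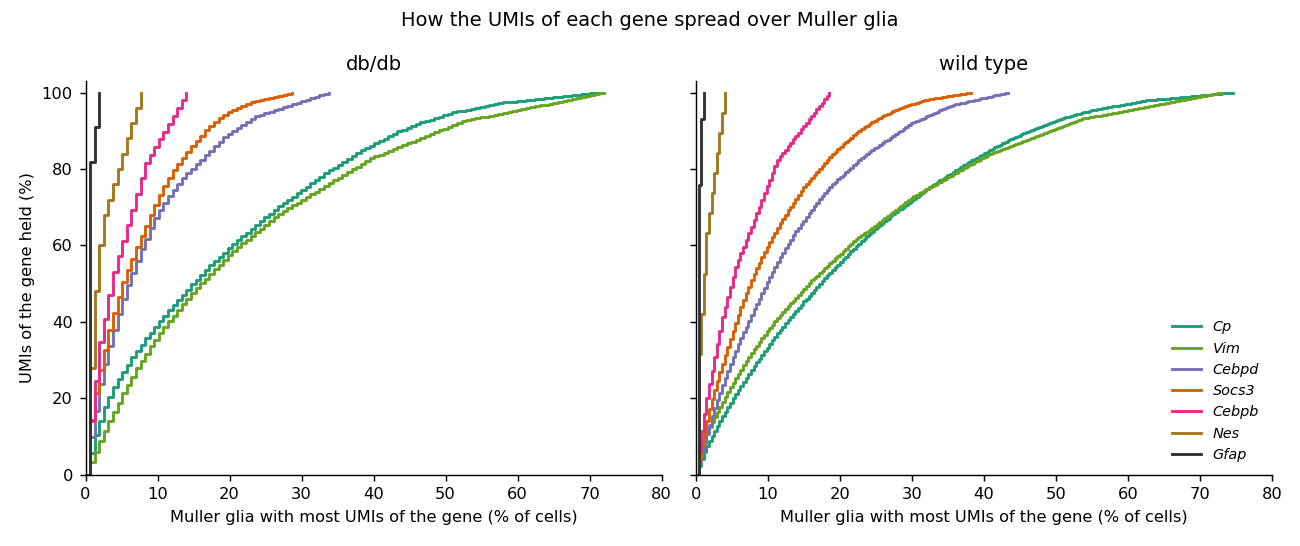
Cumulative share of the UMIs of 7 genes (vertical axis, %) over Muller glia ranked from the cell with most UMIs of the gene downwards (horizontal axis, % of gated Muller glia), db/db left and wild type right. Gfap reaches 100% within 3 cells of each library, Socs3, Cebpd and Cebpb lie between, and Cp and Vim spread over more than 71% of the cells.

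Cebpd was detected more often in Muller glia that had Socs3. After thinning to 1000 UMIs, 37.0% of 27 db/db Muller glia with Socs3 also had Cebpd, against 12.5% of 96 without Socs3. The wild-type library gave 56.5% of 69 cells with Socs3 and 19.7% of 142 without. Cp, which nearly every well marked Muller cell carried, showed a smaller contrast, with 70.4% against 50% in the db/db library and 82.6% against 59.9% in the wild-type library. Cebpb gave no common order, with 11.1% against 0% in the db/db library and 2.90% against 3.52% in the wild-type library. Only 3 db/db and 7 wild-type thinned cells had Cebpb. Cells with Socs3 were also deeper before thinning, with medians of 6779 against 4424 UMIs in the db/db library and 6483 against 4199 in the wild-type library, and the part of depth in these shares was not tested.

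The immediate early genes, which are switched on within minutes of stimulation and also during enzymatic dissociation of tissue, moved with this group. Of 12 such genes listed, 11 were measured in Muller glia, all 11 were lower in the db/db library, and their median log2 ratio was -0.52, close to the -0.40 of Socs3 and the -0.46 of Cebpd. In each of the 11 the counting interval left out 0, which held on the lower side for 5.0% of all 6663 genes measured in Muller glia. Fos had 5817 CPM in db/db and 8336 CPM in wild-type Muller glia, a log2 ratio of -0.52, and Jun stood at -0.55. Hspa1a, a heat shock gene, and Atf3, a stress transcription factor, differed most at -1.18 and -1.03. Muller glia with a Socs3 UMI held the 12 genes at 36620 CPM in the db/db library and 39421 CPM in the wild-type library, while those without held 6577 and 11821 CPM. These groups differed in depth, with medians of 6610 UMIs with Socs3 and 1934 without in the db/db library, and of 6667 and 1316 in the wild-type library. In the Muller glia with 8 to 10 markers the median log2 ratio of the 11 genes was -0.47, beside -0.31 for Socs3 and -0.49 for Cebpd. In the shallow cells with 4 to 7 markers 8 of the genes were measured and 5 were below 0, with Fos at 0.04 and Fosb at 0.67 (0.22 to 1.12). In those cells Socs3 stood at -1.33 (-2.39 to -0.37) and Cebpd at 0.92 (-0.01 to 1.88). The part of this response in the difference of Socs3, Cebpd and Cebpb was not tested.

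Over the 5 members measured in Muller glia (Vim, Cebpb, Cebpd, Cp and Socs3) the median log2 ratio was -0.35, against 0.03 over all 6663 measured genes, and all 5 were below 0. None of the 5 differed by 2-fold, which 0.42% of all measured genes did upwards in the db/db library and 0.931% downwards. Counting intervals left out 0 on the lower side for Cebpd and Socs3 and on the higher side for none, as they did for 5.0% and 6.08% of all measured genes. The members that stood above 0 in Muller glia, namely Nes, Fgf2 and Edn2, had under 50 UMIs each. Over all kept cells the contrast of the Muller genes was larger, with log2 ratios of -1.09 for Cebpd, -0.79 for Cp and -0.65 for Vim, beside a share of Muller glia among kept cells of 1.43% in the db/db library and 2.69% in the wild-type library. How much this share added to the contrast was not tested. Of the Muller gate markers themselves, none of the 10 differed by more than 0.23 on the log2 scale within the class. The cells were chosen by these markers in both libraries, so this is not an independent check.

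**Figure D3:**
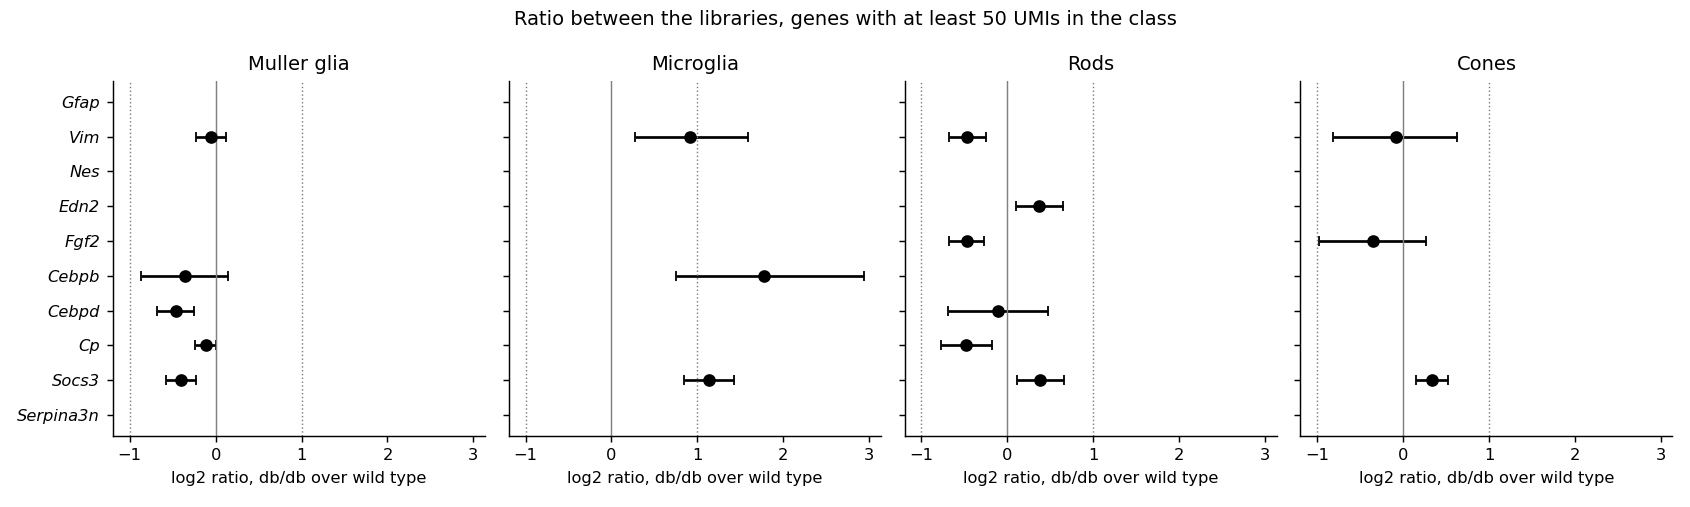
Log2 ratio of db/db over wild type (horizontal axis) of the members with at least 50 UMIs in each class, with exact 95% intervals for counting error, dotted lines at 2-fold and no replicate check. All 5 points of Muller glia lie below 0, and the points of Cebpb and Socs3 in microglia lie past the 2-fold line on the higher side.

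In microglia, the resident macrophages of the retina, Socs3 and Cebpb were higher in the db/db library, and the difference between the classes was not tested. Socs3 had 361 UMIs in the 53 db/db microglia and 137 in the 54 wild-type microglia, 1549 CPM (1393 to 1717) against 706 CPM (592 to 834). The log2 ratio was 1.13 (0.85 to 1.43), and it lay between 1.04 and 1.87 under 14 other ways of gating, filtering and scaling. Cebpb had 41 UMIs in db/db microglia and 10 in wild-type microglia, 176 and 51.5 CPM, a log2 ratio of 1.77 (0.75 to 2.93). Cebpb barely passed the minimum of 50 UMIs for a measured gene, and did so through its 41 db/db UMIs. Its place among the measured members thus depended in part on the difference itself. For this reason the share of all genes past 2-fold is no test of the tally of members. Of the 1312 genes measured in microglia, 1.6% were higher in the db/db library by 2-fold and 1.75% lower. Socs3 and Cebpb both exceeded 2-fold and were 2 of the 3 measured members. The third was Vim, with 68 UMIs in db/db microglia and 30 in wild-type microglia, a log2 ratio of 0.92 (0.28 to 1.59), but 33 of the 68 came from 1 cell. With the microglial markers required at 1% of UMIs the ratio of Vim was at 0, with -0.00. In db/db microglia Socs3 was 2.89-fold (2.49 to 3.35) above db/db Muller glia, whereas in wild-type microglia it was equal to wild-type Muller glia at 0.995-fold (0.825 to 1.19).

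A Socs3 UMI was found in 34 of 53 db/db microglia and in 25 of 54 wild-type microglia, 64.2% and 46.3%. The db/db microglia were deeper, with a median of 4816 UMIs against 1933. Among cells thinned to 1000 UMIs the shares were 52.5% of 40 db/db microglia and 28.2% of 39 wild-type microglia. In microglia with at least 2000 UMIs the log2 ratio of Socs3 was 1.04. Immediate early genes moved with Socs3 in this class too, but upwards, with all 11 measured ones above 0 in the db/db library, a median of 0.51, and Fos at 1.12. The counting interval left out 0 in 9 of the 11, and this was the case for 9.91% of all genes measured in microglia on the higher side and for 9.76% on the lower side. Their part in the difference was not tested. In rods and cones Socs3 also stood above 0, at 0.38 and 0.33, but the immediate early genes did not move with it. All 12 were measured there, 7 were below 0 in rods and 9 in cones, and their medians were -0.07 and -0.10. Cebpd was scarce in microglia, with 7 UMIs in the db/db library and 1 in the wild-type library, and Nes had 12 UMIs and 3 UMIs, of which 11 came from 1 db/db cell.

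**Figure D4:**
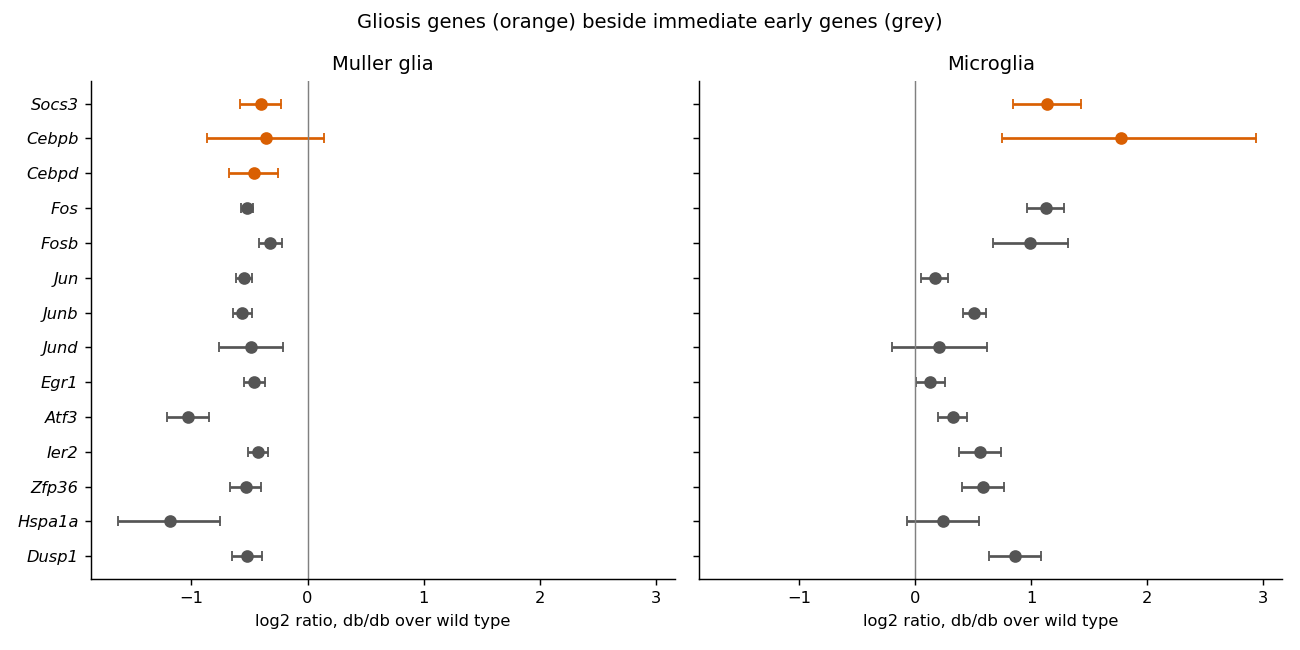
Log2 ratio of db/db over wild type (horizontal axis, exact 95% counting intervals) for Socs3, Cebpb and Cebpd in orange and 11 immediate early genes in grey, in Muller glia (left) and microglia (right), and Cebpd had too few UMIs in microglia to be drawn. All points of Muller glia lie below 0 and all points of microglia above it.

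The secreted factors Edn2 and Fgf2 had low levels in both photoreceptors and Muller glia. Edn2 encodes endothelin 2, a peptide that photoreceptors are known to release under stress (ENSMUSG00000028635, chr4:120161206-120167360). Rods held 258 Edn2 UMIs in the db/db library and 196 in the wild-type library, which were 88.7% and 85.2% of all Edn2 UMIs of the kept cells, while rods held 81.2% and 75.3% of the UMIs of all genes. The level in rods was 9.48 CPM (8.35 to 10.7) in the db/db library and 7.32 CPM (6.33 to 8.42) in the wild-type library, a log2 ratio of 0.37 (0.10 to 0.65). Besides Edn2, only Socs3 among the measured members stood above 0 in rods. Edn2 stood above 0 under 11 of 11 alternatives, and 190 db/db rods (2.00%) and 122 wild-type rods (1.47%) carried it. Muller glia had 9 Edn2 UMIs in each library, and single cells held 7 of the db/db and all 9 of the wild-type ones. Cones had 22 UMIs in each library, 6.48 CPM (4.06 to 9.81) in the db/db library and 4.92 CPM (3.08 to 7.44) in the wild-type library, and bipolar cells had 1 UMI in each. Rods, cones and Muller glia were thus not separable by their Edn2 level. Within rods, Edn2 was lower in cells with 5% or more mitochondrial UMIs, at 4.19 CPM in the db/db library and 3.67 CPM in the wild-type library, than in cells with under 2%, at 10.2 and 8.84 CPM. Rods with 2 to 5% stood at 12.8 CPM (10.5 to 15.5) and 8.25 CPM (6.69 to 10.1). Only in these rods did the counting intervals of the libraries not overlap. Rods under 2% numbered 4031 of 9506 in the db/db library and 2810 of 8290 in the wild-type library. The part of this mix in the ratio of Edn2 was not tested.

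Fgf2 encodes basic fibroblast growth factor, a survival factor for photoreceptors (ENSMUSG00000037225, chr3:37348346-37410108). It moved opposite to Edn2 in rods. Rods held 361 UMIs in the db/db library and 493 in the wild-type library, 13.3 CPM (11.9 to 14.7) and 18.4 CPM (16.8 to 20.1), a log2 ratio of -0.47 (-0.67 to -0.28) that stayed between -0.54 and -0.36 under 11 alternatives. Cones had 37 UMIs in the db/db library and 62 in the wild-type library, with a log2 ratio of -0.35 that lay within counting error. This ratio ranged from -1.88 among thinned cells to 0.65 with the rod profile subtracted. Muller glia had 21 UMIs in 19 db/db cells and 28 UMIs in 22 wild-type cells, 30.2 CPM (18.7 to 46.1) and 22.1 CPM (14.7 to 31.9), a log2 ratio of 0.45 (-0.44 to 1.32). The Muller level of Fgf2 was 2.28-fold (1.39 to 3.53) above rods in the db/db library and 1.20-fold (0.789 to 1.76) in the wild-type library. Of the receptors and processing enzymes, 3 of 11 listed genes were measured in Muller glia and none differed by 2-fold. Ece1, the enzyme that activates endothelins, stood at 0.14, Fgf9 at 0.06 and the FGF receptor gene Fgfr1 at -0.05.

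Of the 6 members measured in rods (Vim, Edn2, Fgf2, Cebpd, Cp and Socs3) none differed by 2-fold, against 0.429% of 12131 measured genes upwards in the db/db library and 0.503% downwards. Counting intervals left out 0 on the higher side for Edn2 and Socs3 and on the lower side for Vim, Fgf2 and Cp, as they did for 20.5% and 14.3% of all genes measured in rods. Such small differences were thus common at the depth of the rods. For Socs3, rods had 256 UMIs in the db/db library and 193 in the wild-type library, a log2 ratio of 0.38 (0.11 to 0.66), but 38 of the 256 came from 1 rod, and with equal weight for each cell the ratio was 0.00. Cp and Vim were lower in db/db rods by -0.48 and -0.46, beside the smaller share of Muller glia in that library. The source of these differences was not tested. Cebpd had 50 UMIs in db/db rods and 53 in wild-type rods.

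Cones carried Socs3 at levels far above rods in both genotypes. They held 463 UMIs in the db/db library and 485 in the wild-type library, 136 CPM (124 to 149) and 108 CPM (99.0 to 118), which were 14.5-fold (12.4 to 17.0) and 15-fold (12.7 to 17.9) above rods. In cones 32.1% of db/db and 32.6% of wild-type cells had a Socs3 UMI, against 1.89% and 1.92% of rods, with median depths of 4662 and 4695 UMIs in cones and 1967 and 2232 UMIs in rods. Thinned to 1000 UMIs, the shares in cones were 12.7% and 12.5%, and those in rods 0.718% and 0.786%. Cones had almost none of the partner genes, with 2 Cebpd UMIs in db/db and 9 in wild-type cones, and 0 and 3 Cebpb UMIs. The ratio of Socs3 to Cebpd UMIs was 232 in db/db and 53.9 in wild-type cones, but 1.46 and 1.40 in Muller glia. Between the genotypes the log2 ratio of Socs3 in cones was 0.33 (0.14 to 0.52), past 2-fold for none of the 3 members measured in cones, where 0.285% of 9474 genes were higher by 2-fold and 0.169% lower. The interval left out 0, as for 7.0% of all genes measured in cones on the higher side and 6.19% on the lower. The ratio was 0.06 after thinning.

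Within cones, Socs3 followed the opsin. Mouse cones express Opn1sw, the short-wavelength opsin of the ventral retina, Opn1mw, the middle-wavelength opsin of the dorsal retina, or both. Cones with more Opn1sw than Opn1mw UMIs had 410 Socs3 UMIs over 349 db/db cells and 432 over 431 wild-type cells, 199 CPM (180 to 219) and 148 CPM (134 to 162). Cones with more Opn1mw had 53 UMIs over 243 db/db cells and 51 over 253 wild-type cells, 39.9 CPM (29.9 to 52.2) and 34.0 CPM (25.3 to 44.6). The level in the first group was 4.99-fold (3.74 to 6.77) that of the second in the db/db library and 4.35-fold (3.25 to 5.94) in the wild-type library. Both libraries gave the same order with intervals that did not overlap, at nearly equal median depths of 4658 against 4775 UMIs in db/db cones and 4771 against 4631 in wild-type cones. A Socs3 UMI was found in 45.3% against 14.4% of db/db cones and in 43.6% against 15.8% of wild-type cones. Fgf2 and Edn2 did not divide by opsin beyond counting error, with folds of 1.34 (0.650 to 2.93) and 0.537 (0.208 to 1.36) in the db/db library and 1.17 (0.658 to 2.16) and 0.899 (0.352 to 2.47) in the wild-type library.

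**Figure D5:**
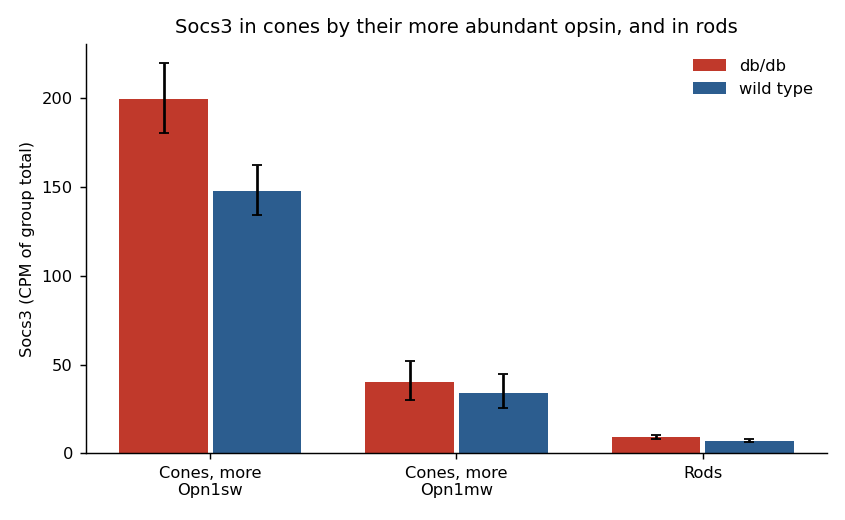
Socs3 level (CPM of the group total, bars from 0, exact 95% Poisson intervals) in cones with more Opn1sw than Opn1mw UMIs, cones with more Opn1mw, and rods, with db/db bars left of wild-type bars. The first group stands at 199 and 148 CPM, the second at 39.9 and 34.0 CPM, and rods at 9.40 and 7.21 CPM.

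Serpina3n, a secreted protease inhibitor that is among the strongest marks of reactive astrocytes (ENSMUSG00000021091, chr12:104406729-104414329), was hardly detected. Db/db Muller glia had 1 UMI and wild-type Muller glia 8 UMIs in 3 cells, 5 of them in 1 cell. The 9 other listed Serpina3 copies in the count table had 0 UMIs in Muller glia, and how reads shared between near-identical copies were counted was not tested, so that the level of Serpina3n is uncertain. Of 8 other genes of reactive astrocytes, only S1pr3 and Cd44 were measured in Muller glia, with log2 ratios of 0.22 and 0.09.

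Most measured genes of the pathway upstream of Socs3 had RNA levels close to equal in the Muller glia of both libraries. Of 14 genes of LIF, CNTF and STAT3 signalling, 9 were measured, none differed by 2-fold, 3 were above 0 and 6 below, and the median log2 ratio was -0.04. Cntfr and Il6st, which encode the receptor of ciliary neurotrophic factor and the shared receptor chain gp130, stood at 0.12 and -0.04, and Jak1 stood at -0.16. Among the measured genes Osmr, the oncostatin M receptor gene, was the lowest at -0.96 (-1.55 to -0.40). Pias3 and Cntf were the highest at 0.46 and 0.45, both within counting error. Lif was too sparse to be measured, with 1 UMI in db/db and 8 UMIs in wild-type Muller glia. The same held for Socs1 (2 and 11), Socs2 (5 and 21), Jak2 (14 and 31) and Tyk2 (6 and 8). Activity of the pathway was not measured. Of 6 genes of the C/EBP family and its partners, 4 were measured and none differed by 2-fold. Ddit3, which encodes the stress factor CHOP, stood at -0.52 (-0.76 to -0.28), Cebpg at -0.25, Atf4 at -0.11 and Cebpz at 0.09.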

How the data were processed

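Single-cell RNA sequencing of mouse retina was analysed in 1 library per genotype, grouped by the genotype label. The authors deposited raw UMI counts per gene and barcode, made with cellranger 6.0.1 per the file headers, and the mm10 build is named per the submitters' processing notes. Annotation release and read strand are not given in the sources used here. Gates, filters and levels are described with the results. Cells that passed 2 gates (13 db/db, 21 wild type) were set apart. No doublet caller was run, so doublets with rods largely remained. Ratios used exact conditional binomial intervals, shares Clopper-Pearson intervals and UMI counts Poisson intervals, with python 3.11.15 and scipy 1.17.1. A count of 0 in a ratio was set to 3 UMIs. CPM was not divided by gene length, since 3' UMIs count molecules once, and levels are compared between classes, not between genes. The code for intervals and folds was run on simulated Poisson counts, the model that the intervals assume. That run held no extra spread among cells or mice, so it cannot show how the intervals cover such spread. For the alternative grouping, scanpy 1.11.5 clustered cells with the Leiden method on 2000 variable genes, without the 10 members, 40 principal components, 15 neighbours and a resolution of 1.0. Positions and exons were taken from GENCODE M21 by gene identifier, promoters from RefSeq. All 10 members were named, and of each related list the measured genes with the 2 highest and 2 lowest log2 ratios and the 2 highest levels in Muller glia. The members and lists were chosen with earlier results of these data known. Alternatives for gate, filter, depth and scaling are given in the closing section.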

Additional observations from a re-analysis of the deposited data

Results flagged for a closer look

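Socs3 and Vim differed in direction between cell classes. The log2 ratio of Socs3, db/db over wild type, was -0.40 in Muller glia, and it was 1.13 in microglia, 0.38 in rods and 0.33 in cones, with counting intervals that left out 0 in each class. The log2 ratio of Vim was 0.92 in microglia and -0.46 in rods. With 1 library per genotype, these differences between classes were not tested. The ratios of Socs3 in rods and of Vim in microglia rest in part on 1 cell each, with 38 of 256 and 33 of 68 db/db UMIs.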

How the results depend on the processing

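The median log2 ratio of the measured members in Muller glia stayed below 0 under every alternative run, between -0.39 and -0.17. Not every member did so in each run. With markers at 1% or more of UMIs 3 of 5 measured members were below 0, after thinning 3 of 4, and in the Leiden clusters 4 of 5. The number of members past 2-fold, 0 at the minimum of 50 UMIs, was 1 at a minimum of 20 UMIs and 2 with no minimum, since sparse genes then entered. Over the gate, filter, depth and scaling alternatives the ratio in Muller glia ran from -0.56 to -0.18 for Socs3, -0.57 to -0.29 for Cebpd, -0.64 to -0.17 for Cebpb, -0.45 to 0.01 for Cp and -0.07 to 0.45 for Vim. The -0.45 of Cp and the 0.45 of Vim came from cells thinned to 1000 UMIs. In microglia Socs3 ran from 1.04 to 1.87 and Cebpb from 1.49 to 2.15. With markers at 1% or more, the ratio turned to -0.00107 for Vim in microglia and to -0.0606 for Socs3 in rods, and the cause was not tested. Socs3 in cones was 0.06 after thinning and 0.10 with the rod profile subtracted. The requirement of 8 Muller markers, the minimum of 2000 UMIs per cell and the removal of the top cell were chosen after seeing the data. Clusters were not used for rods, since most rod clusters stayed unnamed. No paired analysis was possible because each genotype was 1 library and the labels carry no replicate numbers. Small classes limit what could be seen: with 157 and 275 Muller glia, members under 50 UMIs have wide intervals.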

Other observations

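Within the Muller gate the members varied with how well a cell was marked. Socs3 stood at 97.5 CPM in the db/db and 244 CPM in the wild-type cells with 4 to 7 markers, and at 630 and 780 CPM in those with 8 to 10. Cp stood at 463 and 769 CPM in the less marked cells and at 1306 and 1328 CPM in the better marked ones, so that the gap between the libraries was wider in the less marked cells. Cebpd turned direction, with 203 CPM in the db/db and 107 CPM in the wild-type cells with 4 to 7 markers, where 1 cell held all 25 db/db UMIs, and with 403 and 568 CPM in those with 8 to 10 markers. Vim varied little, with 544 and 572 CPM in the less marked cells and 604 and 623 CPM in the better marked ones. The less marked cells were shallow and richer in rod markers, and the part of depth and rod RNA in their levels was not tested.

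Bipolar cells, the interneurons that receive photoreceptor input, had little of any member. Vim had 19 UMIs over 278 db/db bipolar cells and 37 over 396 wild-type ones, or 18.9 and 25.1 CPM. Cp had 2 UMIs in db/db and 16 in wild-type bipolar cells, and Socs3 had 3 and 6.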
